A study of Mus musculus with 12 samples.

Results

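Lungs in which Yy1 had been targeted were compared with lungs in which Dicer had been targeted, both from mouse embryos at E14.5, without passing through the controls. The comparison used 8 of the 12 arrays of the series: 4 arrays of Yy1flox/flox;Shh+/Cre lungs, called Yy1 mutants here, and 4 arrays of Dicerflox/flox;Shh+/Cre lungs, called Dicer mutants. Both groups carried the same heterozygous Shh-Cre allele, and so did the 4 controls, which had Shh+/Cre alone. The members were chosen by genotype and not by any measured value. RNA came from whole lungs on single-channel Affymetrix arrays, and each level below is a log2 value on which a difference of 1 is a 2-fold change. Shh-Cre acts in cells that express sonic hedgehog, which in the lung are epithelial. In which cells either gene was lost was not measured, and the RNA also holds mesenchyme, vessels and blood. The labels do not say whether specimens came from separate litters, so the p-values measure only the spread between these specimens.

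Yy1 is a zinc finger protein that binds DNA and can activate or repress transcription and help to hold enhancers at promoters. Dicer is the ribonuclease that cuts microRNA hairpins into mature microRNAs, which pair through a short seed with target messages and lower their stability or translation. The lung epithelium grows by branching from distal tips, whose progenitors are kept by Fgf10 from the mesenchyme acting on the receptor Fgfr2 and express Sox9 and Id2. Cells left behind in the stalks express Sox2 and form the airways, and later descendants of the tips make surfactant.

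Over 22180 genes, each represented by 1 probe set, 1029 were called different between the mutants, which is 4.64% of all genes (limma, two-sided; a call is an adjusted p under 0.05 after Benjamini-Hochberg adjustment across the whole table). Of these, 318 were higher in Yy1 mutants, or 1.43% of genes, and 711 were lower, or 3.21%. The median difference over all genes, taken as Yy1 mutant minus Dicer mutant, was 0.03. Calls of at least 2-fold were unevenly divided, with 5 genes higher and 59 lower in Yy1 mutants. Among the called genes, 1023 had groups of 4 arrays that did not overlap, a state shared by 13.8% of all genes. The medians of the 8 arrays lay between 6.02 and 6.08, and pairs of them correlated at 0.983 to 0.991 over the probe sets of the table.

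**Figure D1:**
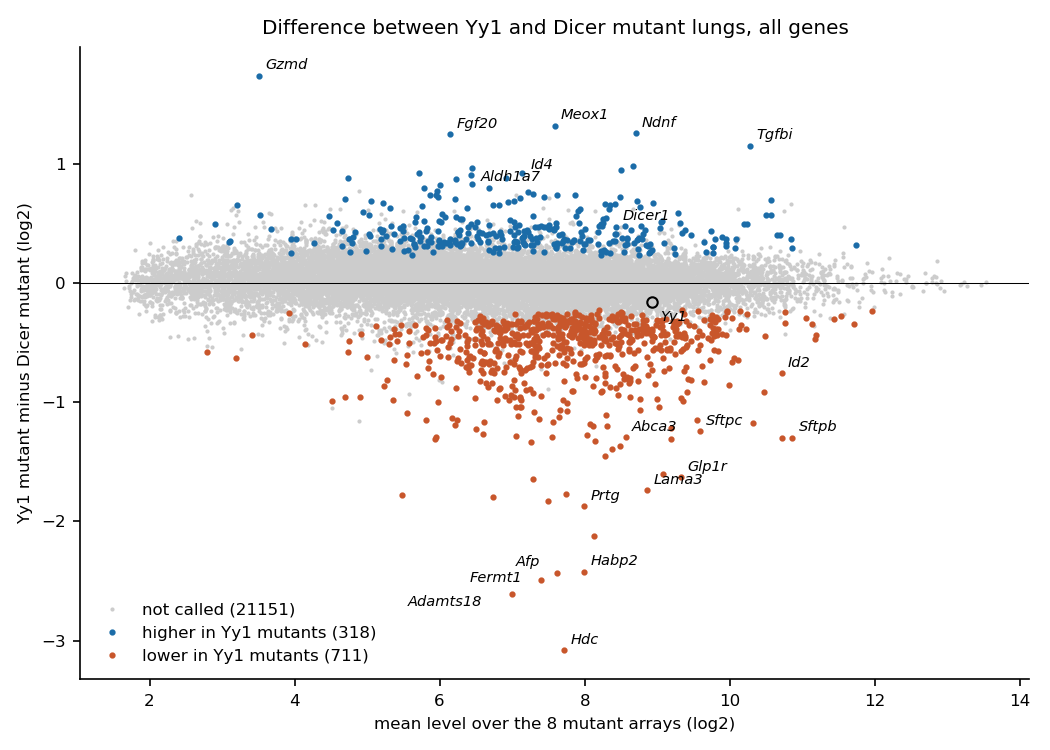
Each point is 1 gene, placed by its mean log2 level over the 8 mutant arrays (x axis) and by the log2 difference of Yy1 mutant minus Dicer mutant (y axis); coloured points passed the test and a ring marks Yy1. The longest differences point downward, to -3.08 for Hdc, and the largest upward difference is 1.74 for Gzmd.

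On 3 of the 8 arrays Y-linked genes read high: Eif2s3y was 7.99 on Yy1 mutant 2, 5.92 on Yy1 mutant 3 and 7.84 on Dicer mutant 4, against 3.91 to 4.44 on the other mutant arrays. Without these 3 arrays, Yy1 mutants 1 and 4 and Dicer mutants 1 to 3 were left, which makes a call harder to reach. On these 5 arrays 16 genes were called higher and 138 lower in Yy1 mutants. The called lower members went from 10 to 3 of the 14 distal tip genes described below, from 7 to 4 of the 13 surfactant genes, from 12 to 3 of the 29 epithelial markers, from 9 to 1 of the 24 basement membrane genes and from 6 to 1 of the 16 let-7 target genes. On these 5 arrays limma called 0 of the 15 lung identity factors, although 10 had an unadjusted p under 0.05, and 0 of the 18 endothelial markers, of which 13 had one. The list medians on these arrays were -0.62 for the distal tip, -0.52 for surfactant, -0.48 for lung identity, -0.37 for endothelium, -0.38 for epithelium, -0.27 for basement membrane and -0.26 for let-7 targets, against values on all 8 arrays of -0.62, -0.52, -0.41, -0.31, -0.25, -0.20 and -0.22 in that order. A fit of all 8 arrays with the sex-linked genes Xist minus Eif2s3y as a covariate called 272 genes higher and 638 lower.

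The targeted genes were read first. Dicer1 read 8.71, 8.47, 8.70 and 8.78 on Yy1 mutant arrays 1 to 4 and 8.03, 8.27, 8.26 and 8.22 on Dicer mutant arrays 1 to 4, while the controls read 9.02, 8.85, 8.73 and 8.63. All 4 Dicer mutant arrays lay below every other array, and Dicer1 was 0.47 higher in Yy1 mutants (SE 0.086, adjusted p = 0.0128, n = 4 each). Yy1 read 8.87, 8.70, 8.85 and 8.95 in Yy1 mutants and 8.96, 9.08, 9.0 and 8.97 in Dicer mutants. The Yy1 mutant arrays lay below all Dicer mutant arrays, but by little, and the difference of -0.16 did not pass the test (SE 0.0689, adjusted p = 0.231). The sources used here do not place the probes inside or outside the floxed exons, so neither reading checks the deletion. The other measured genes of the microRNA machinery, such as Drosha and the Argonautes, were not called, apart from Tnrc6a, an Argonaute partner in silencing, which was lower in Yy1 mutants (difference -0.49, adjusted p = 0.00787).

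Among the 63 gene lists examined, that of the distal tip had the highest share of called members. Of 14 measured tip genes, 10 were lower in Yy1 mutants, 1 was higher and 3 were not called, with a median difference of -0.62 against 0.03 over all genes. The mean level of the list was 8.16 to 8.28 on the Yy1 mutant arrays and 8.60 to 8.83 on the Dicer mutant arrays. The control arrays, which are given here and below as a description with no test, had 8.53 to 8.62. In whole-lung RNA, a change in the number of tip cells and in RNA per tip cell cannot be told apart, in either mutant.

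Fgfr2, the epithelial receptor for Fgf10, read 8.59, 8.73, 8.44 and 8.39 in Yy1 mutants and 9.45, 9.38, 9.11 and 9.61 in Dicer mutants. Every Dicer mutant array lay above every Yy1 mutant array and near the controls, which read 9.31, 9.36, 9.43 and 9.42. The difference was -0.85 (SE 0.113, adjusted p = 0.00266). Etv5, an ETS factor that Fgf signalling switches on in the tips, read 9.13, 9.18, 8.88 and 8.99 against 9.90, 9.57, 9.83 and 9.70, and the controls stood above both at 10.23, 10.35, 10.16 and 10.13. Its groups did not overlap and differed by -0.70 (adjusted p = 0.00251), although a second, dimmer probe set for Etv5 gave -0.16. Its close relative Etv4 went the other way: it read 7.26, 7.26, 7.15 and 7.25 in Yy1 mutants and 7.10, 6.78, 6.61 and 6.83 in Dicer mutants, a difference of 0.40 (adjusted p = 0.0463). Etv4 was the only tip gene called higher in Yy1 mutants, and it lost that call on leaving out any 1 of 7 arrays (adjusted p up to 0.11).

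Sox9, the transcription factor of the tip progenitors and also of cartilage, read 10.00, 9.83, 9.71 and 9.59 in Yy1 mutants and 10.57, 10.32, 10.47 and 10.37 in Dicer mutants. Controls lay between the mutants, at 10.28, 10.13, 10.20 and 10.21, and the mutants differed by -0.65 (SE 0.0961, adjusted p = 0.00476). Col2a1 and Acan, the main cartilage matrix genes, were not called. Id2, an inhibitor of basic helix-loop-helix factors in the tips, read 10.44, 10.11, 10.39 and 10.42 against 11.01, 11.11, 11.10 and 11.14. Here the Yy1 mutants lay near the controls, at 10.15, 10.26, 10.29 and 10.28, and the Dicer mutants stood above both, so that the mutants differed by -0.75 (SE 0.0828, adjusted p = 0.000957).

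Among the secreted signals of the tip, Wnt7b, which the epithelium sends to the mesenchyme, read 7.18, 7.15, 7.13 and 7.16 in Yy1 mutants and 7.88, 7.68, 7.84 and 7.94 in Dicer mutants. The 4 Yy1 mutant values fell within a narrow band below all other arrays, and the difference was -0.68 (SE 0.0672, adjusted p = 0.000596). Bmp4 read 10.97, 11.16, 10.93 and 10.81 against 11.44, 11.34, 11.47 and 11.37, with controls at 10.55, 10.82, 10.77 and 10.56, and differed by -0.43 (adjusted p = 0.0136). Spry2, a feedback inhibitor of Fgf signalling, was 7.18, 7.43, 7.27 and 7.38 in Yy1 mutants, level with the controls, and 7.95, 7.74, 7.83 and 7.77 in Dicer mutants. That difference was -0.51 (adjusted p = 0.00544). Shh, which is both a tip signal and the gene that carries Cre, read 5.58, 5.76, 5.60 and 5.69 against 5.91, 5.53, 5.85 and 5.72, with overlapping groups and a difference of -0.10 (95% interval -0.30 to 0.10, adjusted p = 0.603).

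Surfactant genes were lower in Yy1 than in Dicer mutants in 7 of 13 cases, higher in 0, with a median of -0.52. Sftpc and Etv5 are on both this list and the tip list. Sftpb, a surfactant protein needed to spread the film, read 10.07, 10.87, 10.17 and 9.75 in Yy1 mutants and 11.68, 11.40, 11.37 and 11.60 in Dicer mutants. Every mutant array but 1 stood above the highest control of 9.84, the exception being Yy1 mutant 4, and the mutants differed by -1.30 (SE 0.199, adjusted p = 0.00552). Sftpc, a surfactant protein made by tip and alveolar type 2 cells, had the opposite place relative to the controls: it read 8.52, 9.49, 9.06 and 8.79 against 10.60, 10.00, 10.17 and 10.06, with controls at 11.11, 11.91, 11.39 and 10.97. The mutants did not overlap and differed by -1.24 (SE 0.198, adjusted p = 0.00671).

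Abca3, the lipid transporter of lamellar bodies in which surfactant is stored, had the smallest p of this list. It read 7.95, 8.01, 7.82 and 7.89 in Yy1 mutants and 9.23, 9.27, 9.05 and 9.28 in Dicer mutants, with the controls at 8.12, 8.29, 8.0 and 7.98, next to the Yy1 mutants. The difference was -1.29 (SE 0.0736, adjusted p = 2.29e-05). The phosphate transporter Slc34a2 showed the same order, with 5.73, 6.22, 5.93 and 5.98 against 7.45, 7.20, 6.62 and 7.66 and a difference of -1.27 (adjusted p = 0.00624). Lpcat1, which remodels surfactant lipid, differed by -0.52 (adjusted p = 0.0016). Lamp3 and Sftpd, also of this list, were not called, and Lamp3 read 7.34, 7.69, 7.59 and 7.51 against 7.47, 7.72, 7.44 and 7.63.

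**Figure D2:**
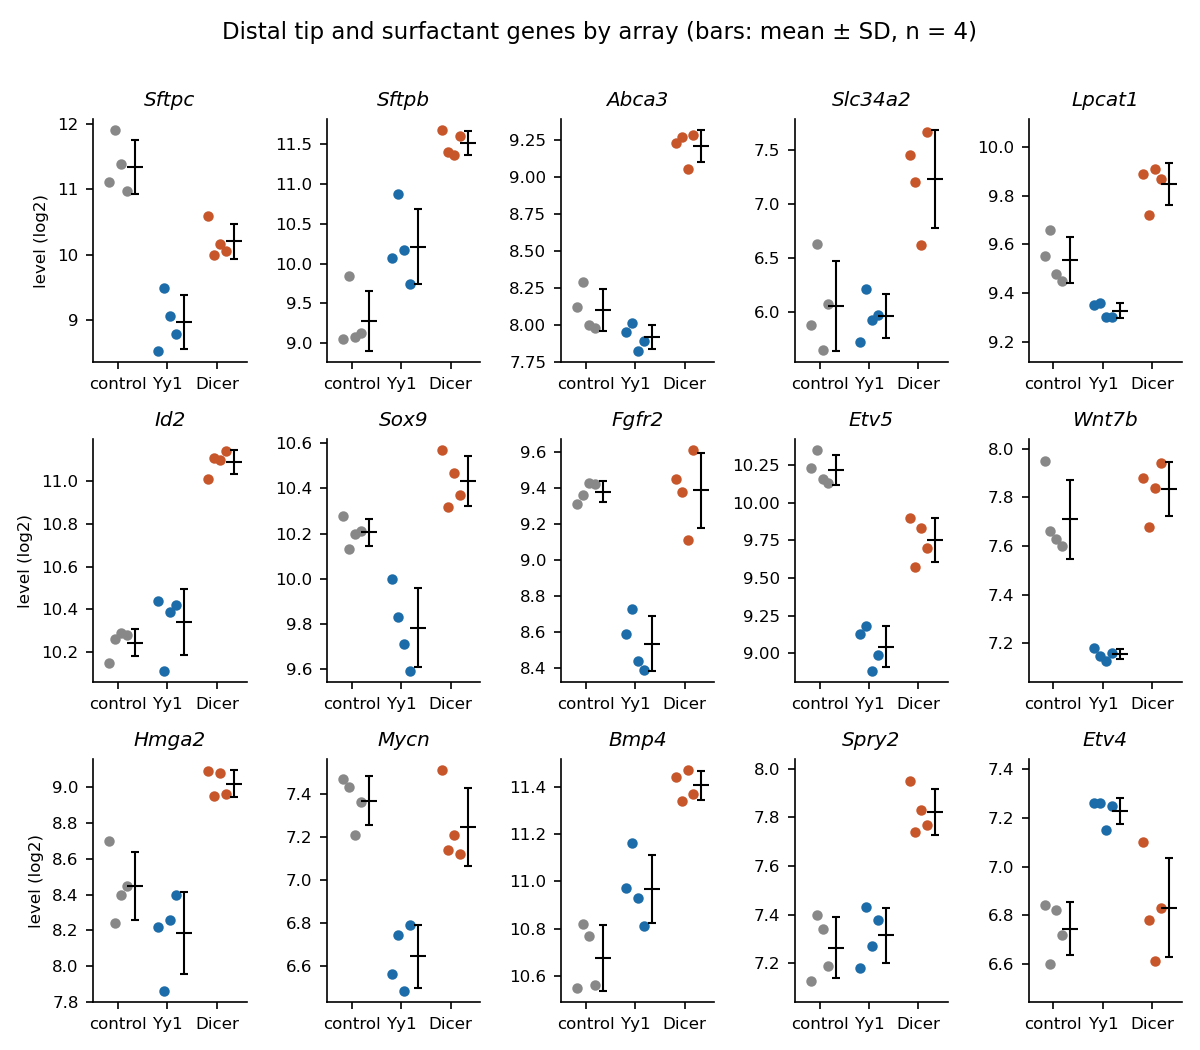
Log2 level (y axis) of 15 distal tip and surfactant genes on each array of the controls (grey), Yy1 mutants (blue) and Dicer mutants (orange), with the mean and SD of 4 arrays beside the points. The Dicer mutant points lie above the Yy1 mutant points in 14 panels and below them for Etv4; each panel has its own scale.

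Transcription factors of lung epithelial identity followed the tip genes, with 7 of 15 lower in Yy1 mutants, 0 higher and a median of -0.41. Foxp2, a forkhead repressor of the distal epithelium, read 9.20, 9.02, 9.03 and 8.99 in Yy1 mutants and 9.86, 9.69, 10.07 and 9.86 in Dicer mutants. All Yy1 mutant arrays lay below all Dicer mutant arrays, with a difference of -0.81 (SE 0.0874, adjusted p = 0.000887). Cebpa, a factor of maturing distal epithelium, read 6.80, 6.98, 6.92 and 6.57 against 7.69, 7.50, 7.35 and 7.65, and only the Dicer mutants stood clear of the controls (6.77, 6.69, 6.59 and 6.78). It differed by -0.73 (adjusted p = 0.00425). The Iroquois genes Irx1 and Irx3 differed by -0.45 and -0.56 and the forkhead gene Foxa2 by -0.46 (adjusted p = 0.016, 0.00643 and 0.0167), although a second probe set for Irx3 gave 0.08. Irx1 lost its call without Dicer mutant 3, Yy1 mutant 1 or Yy1 mutant 3 (adjusted p up to 0.0519) and Foxa2 without Dicer mutant 4 or Yy1 mutant 4 (up to 0.0566). Nkx2-1, the factor that specifies the lung from the foregut, read 8.39, 8.66, 8.15 and 8.23 against 9.06, 8.62, 8.94 and 8.76. Its groups overlapped and its difference of -0.49 did not pass the test (adjusted p = 0.0582).

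General epithelial markers were lower in Yy1 mutants in 12 of 29 cases and higher in 1, with a median of -0.25. Here the list means overlapped, at 7.34 to 7.65 in Yy1 mutants and 7.61 to 7.79 in Dicer mutants, and the controls had 7.87 to 8.08. The adhesion molecule Epcam read 8.88, 8.79, 9.0 and 8.92 in Yy1 mutants and 9.50, 9.41, 9.50 and 9.45 in Dicer mutants. Dicer mutants were close to the controls (9.39, 9.40, 9.25 and 9.36), and the mutants differed by -0.57 (SE 0.0646, adjusted p = 0.00121). Ocln, a tight junction protein, differed by -0.71 (adjusted p = 0.00114). Among intermediate filament genes of simple epithelium, Krt7 was lower in Yy1 mutants by a difference of -0.47 (adjusted p = 0.0137), the 1 call among 49 keratin genes. Krt8 differed by 0.02 (adjusted p = 0.898) and Krt18 by 0.31 (adjusted p = 0.0548), and neither was called.

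Rab25, a small GTPase of epithelial membrane recycling, was the 1 marker called higher in Yy1 mutants. It read 7.60, 7.91, 7.72 and 7.43 in Yy1 mutants and 7.04, 6.84, 6.82 and 6.96 in Dicer mutants, and the Yy1 mutants lay among the controls (7.71, 8.09, 7.66 and 7.40). The difference was 0.75 (SE 0.101, adjusted p = 0.00297). On the list of 14 epithelial serine proteases and inhibitors, 4 were lower in Yy1 mutants (28.6%, against 4.64% of all genes), 0 were higher and 10 missed the threshold, and the median was 0.02. The 4 were Spint1, an inhibitor of matriptase, at 7.97, 8.28, 8.02 and 7.71 against 8.93, 8.69, 9.04 and 8.84 (difference -0.88, adjusted p = 0.00297), Prss8 (-0.79, adjusted p = 0.00948), Tmprss2 (-0.68, adjusted p = 0.0017) and St14, matriptase itself (-0.42, adjusted p = 0.0249). St14 lost its call on leaving out any 1 of 6 arrays, with adjusted p up to 0.0737, and Spint1, Prss8 and St14 are also on the epithelial list.

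Of 17 proximal airway markers, 3 were higher in Yy1 mutants, 1 was lower and 13 missed the threshold, and the median was 0.11. Without the 3 arrays high in Y-linked RNA limma called 0 of them (5 had an unadjusted p under 0.05), and the median was 0.04. The mutants overlapped in the list mean and lay far below the controls: it was 5.61 to 5.73 in Yy1 mutants, 5.48 to 5.70 in Dicer mutants and 6.49 to 6.70 in controls. Sox2, the transcription factor of the airway lineage, read 6.70, 6.31, 6.36 and 6.04 in Yy1 mutants, 5.47, 5.33, 5.98 and 5.56 in Dicer mutants and 7.79, 7.74, 7.43 and 7.38 in controls. The Yy1 mutants lay between the other groups without overlap, 0.77 above the Dicer mutants (SE 0.159, adjusted p = 0.0236). Aldh1a7, an aldehyde dehydrogenase with a near-identical relative in Aldh1a1, read 7.06, 6.84, 7.05 and 6.58 against 5.62, 5.80, 6.40 and 6.09, while the controls read 10.27, 10.24, 10.49 and 10.24. The difference between the mutants, 0.91 (SE 0.167, adjusted p = 0.0133), was small beside their distance from the controls.

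Cyp2f2, a cytochrome of club cells, the secretory cells of the airway, read 5.61, 5.48, 5.52 and 5.69 against 5.31, 5.29, 5.06 and 5.0. The difference of 0.41 (adjusted p = 0.0271) rested on low values, and a second probe set gave 0.12. Sox2 and Cyp2f2 were sensitive to single arrays: Sox2 lost its call on leaving out any 1 of 6 arrays (Yy1 mutants 1 to 3 and Dicer mutants 1, 2 and 4, adjusted p up to 0.066) and Cyp2f2 on leaving out any 1 of 5 (Yy1 mutants 1, 3 and 4 and Dicer mutants 3 and 4, up to 0.082). On the 5 arrays without raised Y-linked RNA the adjusted p was 0.256 for Sox2, 0.202 for Aldh1a7, 0.16 for Cyp2f2 and 0.068 for Cckar. Cckar, the receptor for cholecystokinin, was the 1 member of the list called lower. It read 6.62, 6.90, 6.69 and 6.16 in Yy1 mutants and 7.54, 7.32, 7.94 and 7.74 in Dicer mutants, below controls of 9.37, 9.14, 9.17 and 9.06, and differed by -1.04 (SE 0.167, adjusted p = 0.00691). Scgb1a1 of club cells and Foxj1 of ciliated cells, whose levels were low in every group, were not called.

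**Figure D3:**
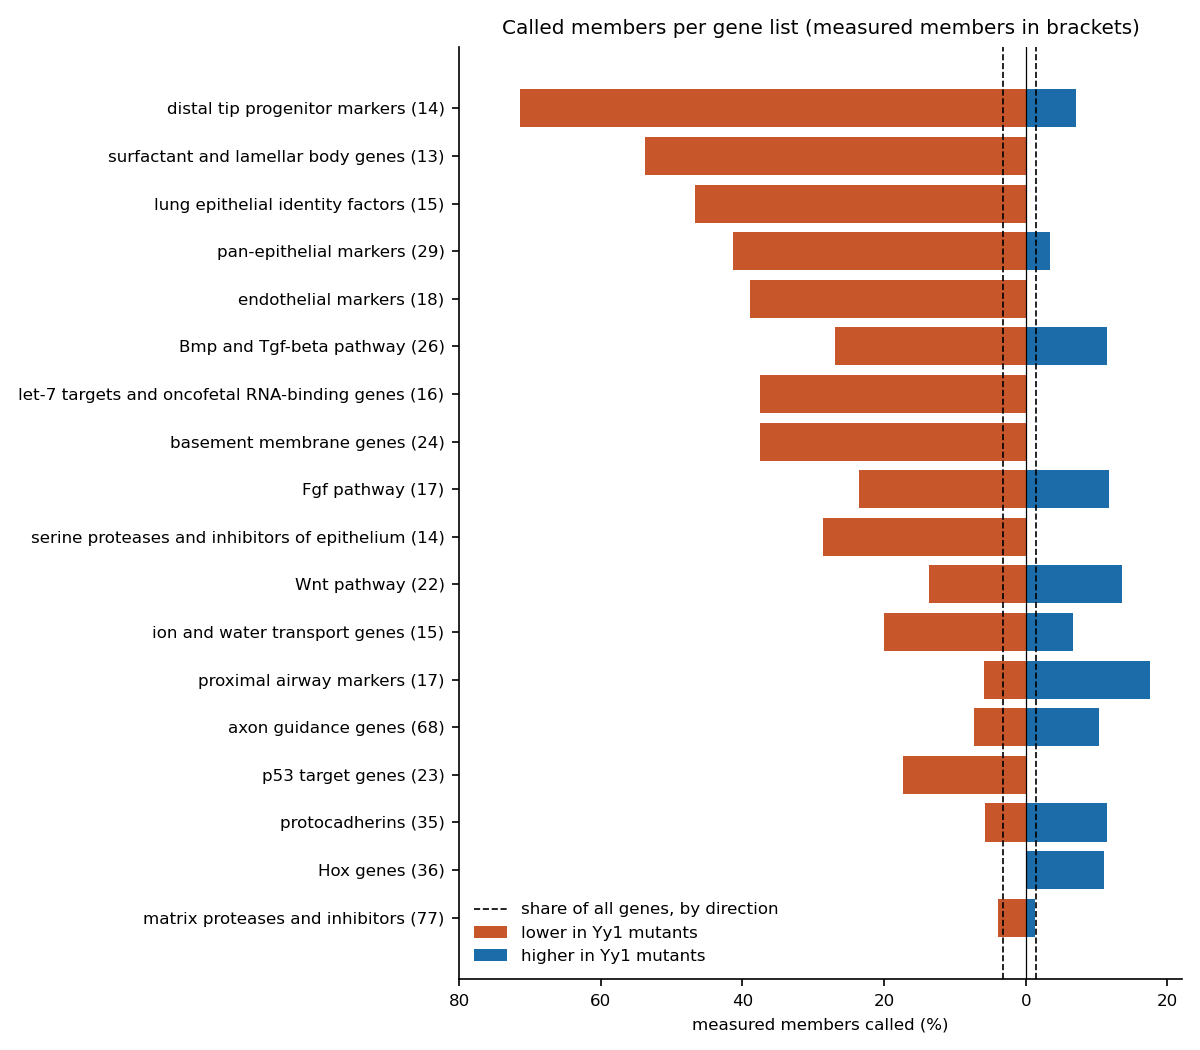
Share of measured members called lower (orange, to the left) or higher (blue, to the right) in Yy1 mutants for the lists with at least 3 called members, except the list of 483 microRNA genes; the x axis is in percent, the number of measured members stands in brackets and dashed lines mark the shares over all genes, 3.21% lower and 1.43% higher. The distal tip list reaches furthest to the left, at 71.4%, and the proximal airway list furthest to the right, at 17.6%.

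Because Dicer makes mature microRNAs, microRNA genes and known targets were examined next. The mature sequences below belong to 6 of the microRNA genes that were lower in Yy1 mutants, and to let-7a, whose targets are considered after them. Capitals mark the seed, bases 2 to 8.
miR-200a-3p: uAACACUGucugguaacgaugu
miR-200b-3p: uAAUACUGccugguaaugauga
miR-205-5p: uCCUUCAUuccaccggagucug
miR-218-5p: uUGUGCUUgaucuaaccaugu
miR-19a-3p: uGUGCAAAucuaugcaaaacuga
miR-181b-5p: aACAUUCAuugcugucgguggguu
let-7a-5p: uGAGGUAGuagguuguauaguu
These come from RefSeq on GRCm38.p6. The products of Mir200a and Mir200b lie beside each other at chr4:156054911-156054932 and chr4:156055685-156055706 on the minus strand. That of Mir205 lies at chr1:193507503-193507524 on the minus strand, and the let-7a-5p shown lies at chr13:48538239-48538260 on the minus strand. Those of Mir218-1, Mir19a and Mir181b-1 lie on plus strands, at chr5:48223966-48223986, chr14:115044048-115044070 and chr1:137966650-137966673. Where array probes lie on these hairpins is not known here, and a probe set named for a microRNA gene can read its precursor or host transcript, so the values do not measure the mature microRNA.

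Of 483 microRNA genes, 4 were higher and 7 lower in Yy1 mutants, 2.28% in all and below the 4.64% of all genes. A mature sequence was matched for 10 of these 11. Mir200b, whose family holds epithelial identity by repressing Zeb1 and Zeb2, read 6.20, 6.60, 6.25 and 5.98 in Yy1 mutants and 6.99, 6.71, 6.97 and 7.07 in Dicer mutants. The Dicer mutants lay with the controls (7.12, 7.12, 6.95 and 6.80) and the Yy1 mutants below them, a difference of -0.68 (SE 0.127, adjusted p = 0.0145). Mir200a, its neighbour, differed by -0.47 (adjusted p = 0.0359), a call lost on leaving out any 1 of 7 arrays with adjusted p up to 0.0851. Zeb1 read 7.87, 8.06, 7.86 and 7.80 against 7.80, 7.83, 7.84 and 7.90 and was not called (adjusted p = 0.729). Mir205, another microRNA of epithelia, read 4.50, 4.50, 4.59 and 4.18 against 4.96, 4.90, 5.05 and 5.17 and differed by -0.58 (adjusted p = 0.00904).

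Mir218-1, which lies in an intron of Slit2, differed by -0.62 (adjusted p = 0.0182), and Slit2, a guidance ligand, by -0.56 (adjusted p = 0.000476). Mir218-1 lost its call without Dicer mutant 4, Yy1 mutant 3 or Yy1 mutant 4, with adjusted p of 0.0529, 0.0585 and 0.0581. Mir19a differed by -0.50, Mir181b-1 by -0.27 and Mir3965, whose levels were low, by -0.44 (adjusted p = 0.0365, 0.0365 and 0.0392). Mir3108 was higher in Yy1 mutants by 0.88, but its call was lost on leaving out any 1 of 6 arrays (adjusted p from 0.0359 to 0.0919), and Mir669c, Mir708 and Mir341 were higher by 0.42, 0.37 and 0.24. Mir19a, Mir181b-1, Mir3965, Mir669c, Mir708 and Mir341 each lost its call in at least 5 of the 8 fits with 1 array left out, with adjusted p up to 0.118.

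Targets of let-7 are oncofetal genes that are switched off as let-7 accumulates in development. On a list of 16 such targets and related RNA-binding genes, 6 were lower in Yy1 mutants, 0 were higher, and the median was -0.22. The list shares Hmga2, a called gene, with the tip list, so the counts of these lists are not separate. The list mean was 7.01 to 7.09 in Yy1 mutants, 7.12 to 7.17 in controls and 7.25 to 7.36 in Dicer mutants. The 3 ranges did not overlap. Of the 12 measured microRNA genes that give rise to a product with the let-7 seed GAGGUAG, limma called 0 (1 had an unadjusted p under 0.05), with a median difference of -0.05.

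Hmga2, a chromatin protein of growing embryonic tissue, read 8.22, 7.86, 8.26 and 8.40 in Yy1 mutants and 9.09, 8.95, 9.08 and 8.96 in Dicer mutants. All 4 Dicer mutant arrays lay above every control (8.70, 8.24, 8.40 and 8.45), and the mutants differed by -0.84 (SE 0.108, adjusted p = 0.00227). Trim71, a ubiquitin ligase of embryonic cells, read 7.15, 7.09, 7.12 and 7.16 against 7.80, 7.45, 7.52 and 7.71, with the Yy1 mutants at the control level of 7.14, 7.14, 7.18 and 7.18. That difference was -0.49 (SE 0.0817, adjusted p = 0.00825). Arid3b, a DNA-binding protein, differed by -0.53 (adjusted p = 0.00298), with 0.03 in a second probe set, and E2f5, a cell cycle factor, by -0.45 (adjusted p = 0.0149, and 0.0504 without Yy1 mutant 3). Mycn, a transcription factor of growing tips as well as a let-7 target, read 6.56, 6.74, 6.48 and 6.79 against 7.51, 7.14, 7.21 and 7.12, and here the Dicer mutants overlapped the controls (7.47, 7.43, 7.21 and 7.36). It differed by -0.60 (adjusted p = 0.0102). Lin28a and Lin28b, which block let-7 processing, were not called.

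**Figure D4:**
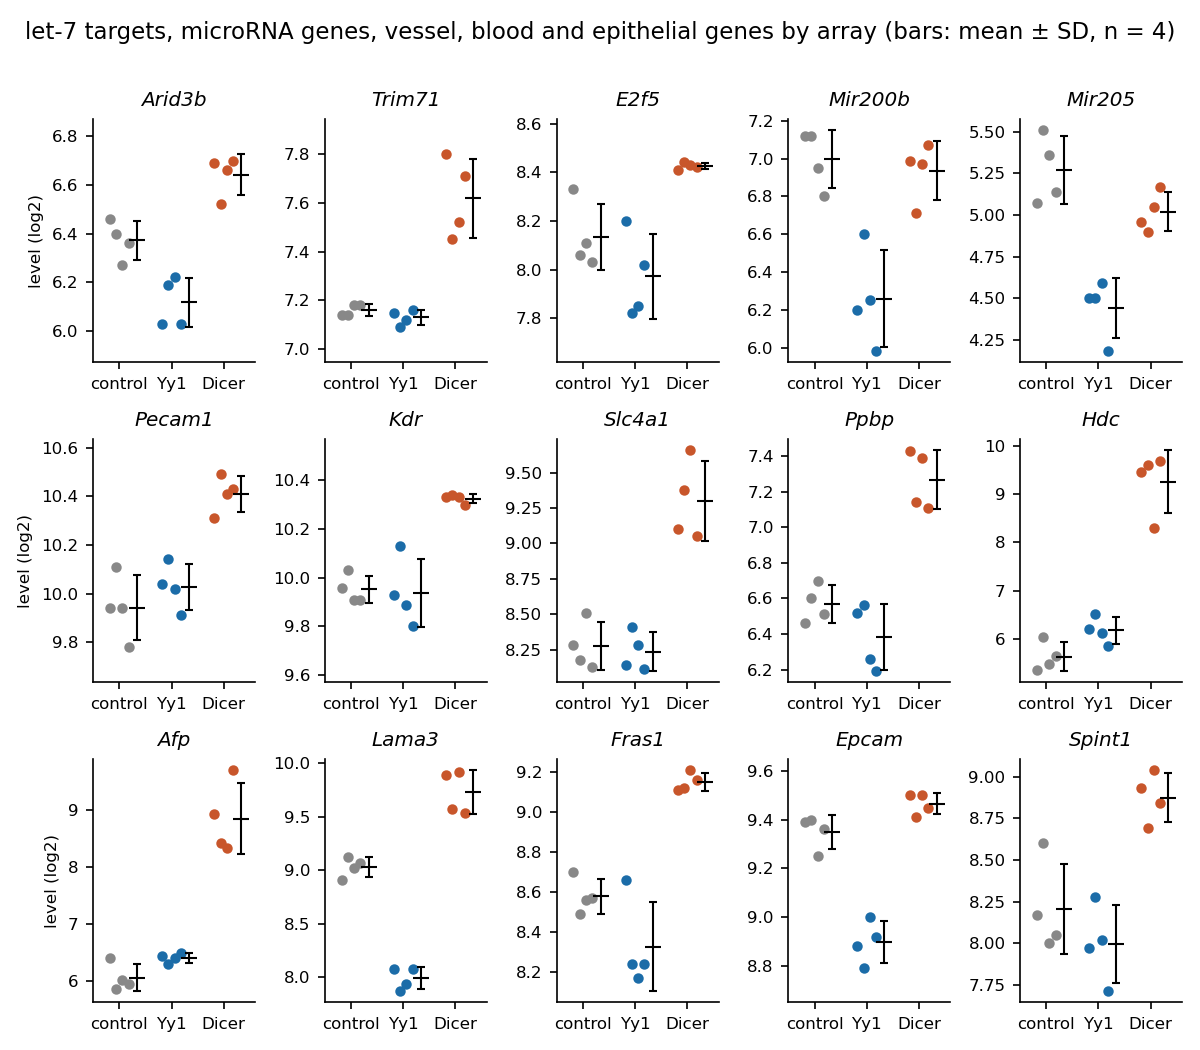
Log2 level (y axis) of let-7 targets, microRNA genes and vessel, blood cell, matrix and epithelial genes on each array of the controls (grey), Yy1 mutants (blue) and Dicer mutants (orange), with the mean and SD of 4 arrays beside the points. In all 15 panels the Dicer mutant arrays lie above the Yy1 mutant arrays, and for Trim71, Slc4a1, Hdc and Afp the Yy1 mutants lie near the controls; each panel has its own scale.

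Signalling pathways divided by component. Their lists share called genes with the tip list, among them Fgfr2 and Etv5 (Fgf), Wnt7b (Wnt) and Id2 (Bmp and Tgf-beta). In the Fgf pathway 2 of 17 genes were higher and 4 lower in Yy1 mutants (35.3% called, against 4.64% of all genes), with a median of -0.07. Without the 3 arrays high in Y-linked RNA, 0 were called higher and 1 lower. The ligand Fgf10 was not called, at 8.96, 8.97, 8.98 and 8.93 against 8.63, 8.86, 8.76 and 8.83, and in both mutants it read above the controls (7.60, 8.39, 8.27 and 8.06). The receptors moved apart: Fgfr2 and Fgfr4 were lower in Yy1 mutants, Fgfr4 with a difference of -0.60 (adjusted p = 0.015), while Fgfr1, the main mesenchymal receptor, was higher by 0.35 (adjusted p = 0.0105). Fgf20, a ligand outside that list and among the largest differences, read 6.72, 6.57, 6.98 and 6.80 in Yy1 mutants and 5.59, 5.39, 5.47 and 5.65 in Dicer mutants. Only the Yy1 mutants stood apart from the controls (5.54, 5.12, 5.63 and 5.70), by 1.24 from the Dicer mutants (SE 0.0953, adjusted p = 0.000127).

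In the hedgehog pathway 1 of 13 genes was called (7.69%, against 4.64% of all genes), and 0 without the 3 arrays high in Y-linked RNA. Hhip, a membrane protein that binds hedgehog ligand and is itself a hedgehog target, read 8.15, 7.54, 7.65 and 7.46 in Yy1 mutants and 8.89, 8.64, 9.14 and 8.94 in Dicer mutants. Both lay below the controls (9.58, 9.84, 9.63 and 9.57), the Yy1 mutants further, and the difference was -1.20 (SE 0.154, adjusted p = 0.00218). The other hedgehog targets did not follow it: Ptch1 differed by -0.11 (95% interval -0.31 to 0.10, adjusted p = 0.576) and Gli1 by 0.17 (0.03 to 0.31, adjusted p = 0.171).

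The Wnt pathway had 3 of 22 genes higher and 3 lower in Yy1 mutants (27.3% called, against 4.64% of all genes). Without the 3 arrays high in Y-linked RNA, 0 were called higher and 1 lower. Dkk1, a secreted Wnt inhibitor, read 5.32, 5.39, 5.86 and 5.89 against 6.76, 7.10, 6.77 and 6.59, and the Dicer mutants lay above all other arrays. It differed by -1.19 (SE 0.153, adjusted p = 0.00229). The Wnt amplifier Rspo2 was higher in Yy1 mutants by 0.53 (adjusted p = 0.0111) and the nuclear effector Lef1 by 0.51 (adjusted p = 0.0107), while Axin2, a common Wnt target, was not called (-0.14, adjusted p = 0.233).

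The Bmp and Tgf-beta pathway had 3 of 26 genes higher and 7 lower (38.5% called, against 4.64% of all genes). Without the 3 arrays high in Y-linked RNA, 1 was called higher and 1 lower. Tgfbi, a matrix protein induced by Tgf-beta, read 10.85, 11.01, 10.82 and 10.73 in Yy1 mutants and 9.90, 9.31, 9.80 and 9.80 in Dicer mutants. The Yy1 mutants were near the controls (11.06, 11.06, 10.95 and 10.89) and the Dicer mutants below all other arrays, with a difference of 1.15 (SE 0.123, adjusted p = 0.000886). The inhibitors of differentiation split: Id2 was lower in Yy1 mutants and Id4 higher, at 7.44, 7.80, 7.74 and 7.42 against 6.48, 6.76, 6.71 and 6.75 (difference 0.92, adjusted p = 0.00121), and Id1 and Id3 were not called. The ligand Bmp5 (-0.44, adjusted p = 0.00801) and the receptor Tgfbr1 (-0.48, adjusted p = 0.00671) were lower, and the Bmp antagonist Grem1 was higher by 0.51 (adjusted p = 0.0212, up to 0.0674 with 1 array left out). Of 15 Notch pathway genes only the receptors Notch1 and Notch2 were called, both lower in Yy1 mutants (-0.26 and -0.29), and each lost its call in at least 5 of the 8 fits with 1 array left out (adjusted p up to 0.121 and 0.08).

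Basement membrane genes were lower in Yy1 mutants in 9 of 24 cases (37.5%, against 3.21% of all genes) and higher in 0, with a median of -0.20. Lama3, a laminin chain of epithelial basement membrane, had the largest difference of the list. It read 8.08, 7.87, 7.94 and 8.08 in Yy1 mutants and 9.89, 9.57, 9.92 and 9.53 in Dicer mutants, with the controls (8.91, 9.12, 9.02 and 9.07) between the mutants and apart from both. The difference was -1.74 (SE 0.103, adjusted p = 2.29e-05). Fras1 and Frem2, which form a complex under epithelia, differed by -0.83 and -0.46 (adjusted p = 0.00191 and 0.00306), and Lama1, a laminin chain of early basement membranes, by -0.58 (adjusted p = 0.00305). Tinag, a basement membrane glycoprotein, read 5.45, 5.24, 5.24 and 5.22 against 6.11, 6.46, 7.13 and 6.69 and 7.99, 8.90, 8.38 and 8.11 in controls, so both mutants lay below the controls and the Yy1 mutants lowest (-1.31, adjusted p = 0.00298). Fermt1, an integrin activator of epithelial cells, was among the largest differences of all genes: 6.21, 6.15, 6.04 and 6.18 in Yy1 mutants, 8.41, 8.62, 8.85 and 8.68 in Dicer mutants and 6.67, 7.01, 6.76 and 6.45 in controls. The controls lay between the mutants and nearer to the Yy1 mutants, and the mutants differed by -2.49 (SE 0.0921, adjusted p = 1.43e-06).

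Transport genes of the epithelium were called in 4 of 15 cases (26.7%, against 4.64% of all genes), 3 of them lower in Yy1 mutants. Without the 3 arrays high in Y-linked RNA, 0 were called higher and 1 lower. Cftr, the chloride channel of lung liquid secretion, read 5.61, 5.60, 5.25 and 5.42 in Yy1 mutants and 6.31, 6.23, 6.81 and 6.55 in Dicer mutants, both below the controls (7.56, 7.95, 7.58 and 7.44). It differed by -1.0 (SE 0.131, adjusted p = 0.00249). The water channels Aqp4 and Aqp1, the latter also made by vessels and red cells, differed by -1.13 and -0.49 (adjusted p = 0.00272 and 0.00922). The member called higher was Slc26a4 (0.27, adjusted p = 0.0459), a call lost on leaving out any 1 of 7 arrays. The sodium channel subunits Scnn1a, Scnn1b and Scnn1g were not called. Outside this list, Slc39a8, a zinc and manganese importer, read 7.59, 7.42, 7.47 and 7.45 against 8.90, 8.68, 8.82 and 8.82. It differed by -1.32 (SE 0.0687, adjusted p = 1.37e-05) and was the 1 call among 9 metallothionein and zinc genes (11.1%), whose median was -0.01.

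Some markers of vessels and blood cells were lower in Yy1 mutants. Of 18 endothelial markers, 7 were lower, 0 higher and 11 not called, with a median of -0.31, and the list mean was 8.63 to 8.90 in Yy1 mutants, 9.0 to 9.07 in Dicer mutants and 8.63 to 8.84 in controls. The Yy1 mutants thus lay with the controls and the Dicer mutants above. Pecam1, an adhesion molecule of endothelium, read 10.04, 10.14, 10.02 and 9.91 in Yy1 mutants and 10.31, 10.49, 10.41 and 10.43 in Dicer mutants (difference -0.38, SE 0.0701, adjusted p = 0.0128). Kdr, the receptor for Vegf, differed by -0.39 (adjusted p = 0.0179), a call lost without Dicer mutant 3 or 4 or Yy1 mutant 1 or 3 (adjusted p up to 0.0603).

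Slc4a1, the anion exchanger of red cells, read 8.14, 8.41, 8.28 and 8.11 in Yy1 mutants and 9.10, 9.38, 9.66 and 9.05 in Dicer mutants, with controls at 8.28, 8.18, 8.51 and 8.13. The Yy1 mutants lay among the controls and the Dicer mutants above both, a difference of -1.06 (SE 0.133, adjusted p = 0.00191). On the list of 10 erythroid markers 2 were lower in Yy1 mutants and 8 were not called, with list means of 6.71 to 6.89 against 6.94 to 7.27, while the embryonic globins Hbb-y and Hbb-bh1 were not called (0.24 and 0.21). On the list of 4 platelet markers 2 were lower, among them the platelet chemokine Ppbp at 6.52, 6.56, 6.26 and 6.19 against 7.43, 7.14, 7.39 and 7.11 (-0.88, adjusted p = 0.00177), with list means of 6.81 to 6.89 against 7.25 to 7.42. The part of the amount of blood or vessel in the specimens in these differences, and in those of other genes that such cells express, was not tested.

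Hdc, the enzyme that makes histamine, had the largest difference of all genes named here. It read 6.21, 6.52, 6.13 and 5.85 in Yy1 mutants, 9.45, 9.61, 8.29 and 9.69 in Dicer mutants and 5.35, 6.04, 5.47 and 5.65 in controls. Dicer mutants stood far above every other array, and the mutants differed by -3.08, or 8.46-fold (SE 0.28, adjusted p = 0.000346). Histamine is a product of mast cells and basophils, but of 11 markers of those cells only Hdc and Kit (-0.45, adjusted p = 0.00501) were called. Cpa3, a mast cell protease, read 8.52, 8.15, 8.13 and 8.22 in Yy1 mutants and 8.25, 8.22, 7.92 and 8.35 in Dicer mutants, and the difference for Fcer1a, an IgE receptor chain, was 0.02.

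Afp, a serum protein of fetal liver and yolk sac, read 6.44, 6.30, 6.41 and 6.49 in Yy1 mutants and 8.93, 8.42, 8.33 and 9.69 in Dicer mutants. All Dicer mutant arrays stood above the rest, with a difference of -2.43 (SE 0.249, adjusted p = 0.000756). Of 14 liver genes it was the only one called. Alb, the main liver product, read 6.41, 6.03, 5.58 and 7.75 in Dicer mutants and 5.60, 5.58, 5.73 and 5.55 in Yy1 mutants (adjusted p = 0.252), highest on the array that also had the highest Afp. The list mean was 5.98 to 6.12 in Yy1 mutants and 6.18 to 6.61 in Dicer mutants, and the part of liver RNA in the Afp values was not tested.

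Serpinb6b, an intracellular serpin, was lower in Yy1 mutants by a difference of -1.45 (adjusted p = 2.65e-05). Adamts18, a matrix metalloprotease, read 6.12, 5.81, 5.63 and 5.25 in Yy1 mutants, 8.39, 8.21, 8.44 and 8.18 in Dicer mutants and 7.18, 7.47, 7.08 and 7.20 in controls, so the mutants lay on opposite sides of the controls. It differed by -2.61 (SE 0.157, adjusted p = 2.45e-05). Habp2, a hyaluronan-binding serine protease, read 6.68, 6.74, 6.70 and 7.01 against 9.36, 9.20, 8.90 and 9.35 (-2.42, adjusted p = 7.1e-06). Prtg, an immunoglobulin-superfamily receptor of early embryos, read 7.08, 6.96, 7.0 and 7.20 against 8.92, 8.87, 8.91 and 9.02, with the Yy1 mutants near the controls (6.94, 6.92, 6.92 and 6.98). Its difference was -1.87 (SE 0.0703, adjusted p = 1.43e-06). The carboxypeptidases Cpn1 and Cpm differed by -1.79 and -1.77 and the complement regulator Cfi by -1.83 (adjusted p = 9.79e-05, 2.02e-05 and 2.71e-05). Glp1r, the receptor for an incretin hormone, differed by -1.63, but its values were spread over 8.94, 8.51, 9.11 and 7.50 in Yy1 mutants, and its adjusted p went from 0.0165 to 0.0504 without Dicer mutant 4.

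Guidance molecules were called in 12 of 68 cases (17.6%, against 4.64% of all genes), 7 higher and 5 lower in Yy1 mutants, with a median of 0.01. Without the 3 arrays high in Y-linked RNA, 0 were called higher and 3 lower. Epha4, an ephrin receptor, read 8.29, 8.44, 8.20 and 8.20 in Yy1 mutants and 9.96, 9.77, 9.92 and 9.87 in Dicer mutants, on either side of the controls (9.11, 9.18, 8.94 and 8.86). The difference was -1.60 (SE 0.0759, adjusted p = 7.1e-06). The Slit2 receptor gene Robo2 was higher in Yy1 mutants by 0.44 (adjusted p = 0.00733), opposite in sign to Slit2, and Nrp1, a receptor for semaphorins and Vegf, was lower (-0.69, adjusted p = 0.000887).

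Among genes higher in Yy1 mutants, Meox1, a homeobox gene of mesoderm, read 8.11, 8.59, 8.15 and 8.13 in Yy1 mutants and 6.97, 6.99, 7.16 and 6.59 in Dicer mutants. Only the Yy1 mutants stood clear of the controls (7.22, 7.37, 7.18 and 6.96), with a difference of 1.32 (SE 0.139, adjusted p = 0.000863). Ndnf, a secreted protein, read 9.16, 9.61, 9.44 and 9.11 against 7.89, 7.48, 8.70 and 8.23, and here it was the Dicer mutants that stood apart from the controls (9.20, 9.65, 9.26 and 9.38). Its difference was 1.25 (adjusted p = 0.0117). Atp8a1, a lipid flippase, had that same order, at 9.06, 9.33, 9.15 and 9.08 against 8.12, 8.07, 8.31 and 8.21 and controls of 9.15, 9.54, 9.21 and 9.24 (difference 0.98, adjusted p = 0.000222). Gzmd, a granzyme with close relatives in its cluster, had the largest upward difference, 1.74 (adjusted p = 0.00419), on values of only 3.90, 4.70, 4.89 and 4.01 in Yy1 mutants and 2.64, 2.33, 2.38 and 3.21 in Dicer mutants.

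**Figure D5:**
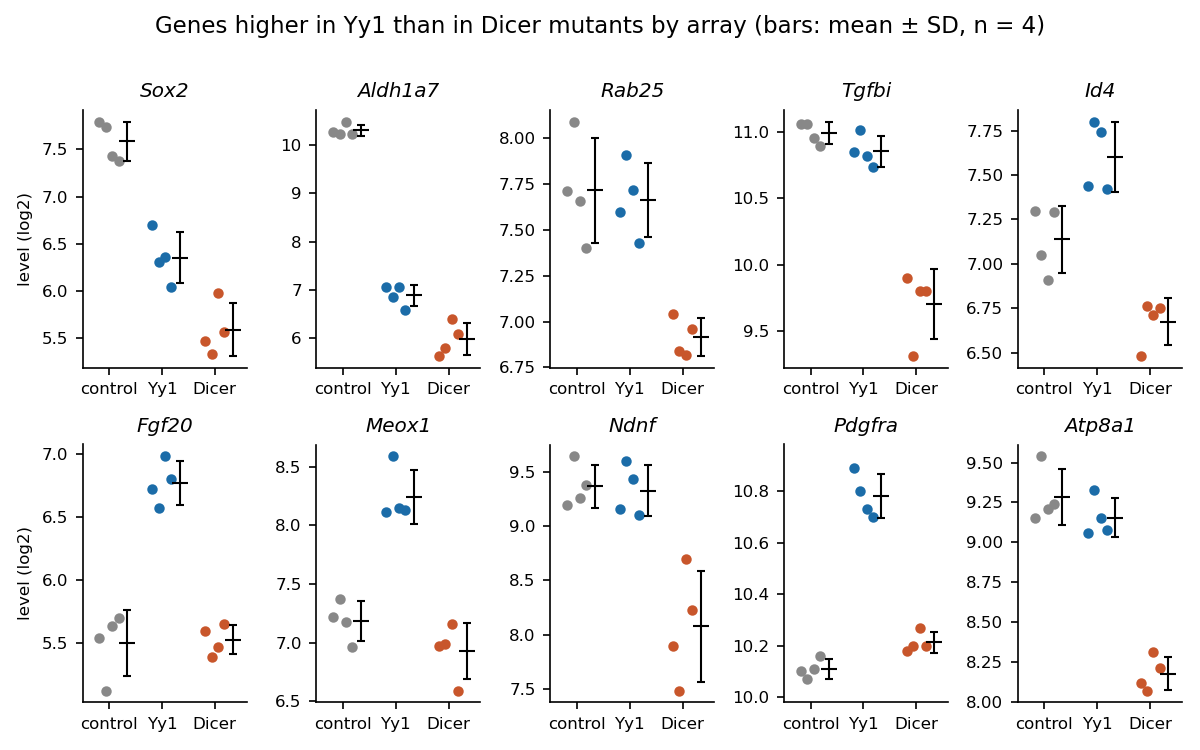
Log2 level (y axis) of 10 genes that were higher in Yy1 than in Dicer mutants, on each array of the controls (grey), Yy1 mutants (blue) and Dicer mutants (orange), with the mean and SD of 4 arrays beside the points. The Yy1 mutants lie near the controls for Rab25, Tgfbi, Ndnf and Atp8a1, above both groups for Fgf20, Meox1, Pdgfra and Id4, and between them for Sox2 and Aldh1a7; each panel has its own scale.

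Pdgfra, a growth factor receptor of mesenchymal cells, was the only 1 of 17 mesenchyme markers called. It read 10.89, 10.80, 10.73 and 10.70 in Yy1 mutants, 10.18, 10.20, 10.27 and 10.20 in Dicer mutants and 10.10, 10.07, 10.11 and 10.16 in controls, a difference of 0.57 (SE 0.0643, adjusted p = 0.0012). The mesenchyme list had a median of 0.00 and the 14 smooth muscle markers, with 0 called, one of -0.03. Of 36 Hox genes 4 were higher in Yy1 mutants (11.1%, against 1.43% of all genes) and 0 lower. The 4 were Hoxb3, Hoxb4, Hoxb5 and Hoxb6, which lie next to each other in the Hoxb cluster. On the 5 arrays without raised Y-linked RNA limma called 0 of the 36, and 8 had an unadjusted p under 0.05. Hoxb5 read 9.66, 9.51, 9.54 and 9.57 against 9.21, 9.18, 8.97 and 8.92 (0.50, adjusted p = 0.00737) and Hoxb3 8.63, 8.37, 8.57 and 8.41 against 8.12, 8.05, 7.84 and 7.97 (0.50, adjusted p = 0.0094). Hoxb4 and Hoxb6 lost their calls in 6 and 5 of the 8 fits that left out 1 array (adjusted p up to 0.089 and 0.0759). Protocadherins, surface proteins of cell recognition, were higher in 4 of 35 cases and lower in 2 (17.1% called, against 4.64% of all genes). On the 5 arrays, 1 was called higher and 0 lower. The 4 higher ones were all of the beta cluster, whose members have similar sequences, led by Pcdhb12 at 6.37, 6.46, 5.97 and 6.45 against 5.60, 5.50, 5.64 and 5.56 (0.74, adjusted p = 0.00389).

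Calls were unevenly spread over the lists of growth and stress genes. Of 16 cell cycle regulators of G1, 2 were called (12.5%, against 4.64% of all genes). Ccnd2 was higher in Yy1 mutants by 0.50 (adjusted p = 0.00406) and Ccnd1 lower (-0.36, adjusted p = 0.0139, and 0.0526 without Dicer mutant 4). Cdkn1a, the p53 target that encodes p21, read 9.57, 10.12, 9.79 and 9.39 in Yy1 mutants and 9.57, 9.52, 9.45 and 9.76 in Dicer mutants, both above controls of 7.20, 7.41, 6.81 and 7.40. The mutants overlapped and differed by 0.14 (95% interval -0.17 to 0.46, adjusted p = 0.64). On the p53 target list 4 of 23 were lower in Yy1 mutants and 0 higher (17.4%), with a median of 0.02, and the clearest was Eda2r, a receptor of the tumour necrosis factor family, at 6.43, 6.42, 6.40 and 6.38 against 6.86, 7.0, 6.83 and 6.99 (-0.51, adjusted p = 0.00175). The others, Btg2, Fas and Ak1, lost their calls in 3, 5 and 7 of the 8 fits with 1 array left out. Without the 3 arrays high in Y-linked RNA limma called 0 of the 23. No member was called for DNA replication (20 measured), the respiratory chain (74), mitochondrial ribosomal proteins (70), cholesterol synthesis (13), the citric acid cycle (13), hypoxia and glycolysis (16), the interferon response (18) or the complexes that work with Yy1 (23), and their medians lay between -0.07 and 0.08. At an unadjusted p under 0.05 in limma, 9 of the 18 interferon response genes and 7 of the 16 hypoxia and glycolysis genes passed.

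Apart from a list of sex-linked control genes, 20 of the 62 lists had 0 members called by limma, 23 had 1 or 2 and 19 had at least 3. Among the 374 entries of the lists without a call, 75 had an unadjusted p under 0.05, as did 4284 of all 22180 genes. Besides those just named, lists without a call were macrophage, lymphatic, neural, skeletal muscle, smooth muscle and heart muscle markers, mucins, the retinoic acid pathway, factors of epithelial to mesenchymal transition, fatty acid synthesis, Atf4 targets and microRNA host transcripts. Heart muscle markers were spread widely within each group, with a list mean of 6.49 to 7.60 in Yy1 mutants and 6.38 to 8.11 in Dicer mutants. Among lists with 1 or 2 calls, the alveolar type 1 list had Akap5 (-0.82, adjusted p = 0.007) and Igfbp2 (-0.78, adjusted p = 0.00339) lower in Yy1 mutants, the mesothelial list Upk3b (-0.42) and Gpm6a (-0.61), the neuroendocrine list Ddc lower (-0.65) and Resp18 higher (0.26), and the small proteoglycans Fmod (-0.81, and -0.52 in a second probe set). Resp18 lost its call in all 8 fits with 1 array left out (adjusted p up to 0.13). Defining genes of those lists such as Hopx, Wt1 and Chga were not called.

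Promoters were searched for the core of the Yy1 motif, AANATGGC, on both strands (GCCATNTT on the other), in windows of 300 bases from 250 before to 50 after each RefSeq start. The motif was present in 7.50% of the 16990 measured genes with a window, in 8.85% of the 531 genes lower in Yy1 mutants and in 4.85% of the 227 genes higher. With the last base left off, the shares were 17.5%, 16.6% and 12.3%. Among the 96 genes named by rule that had a window, those on a single chromosome were not searched, although the shares above include it. Of the others, 0 held the longer motif. How many were left out was not counted, so this 0 cannot be set beside the 7.50% of all genes.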

How the data were processed

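Whole lungs at E14.5 were measured on 12 single-channel arrays, 4 per genotype, of which the 8 mutant arrays were compared. The authors deposited 1 table of log2 values for 41345 probe sets. Base 2 is inferred from the values, and the sources used here give neither the summary nor the normalisation method. Probe sets paired with exactly 1 gene symbol in the platform annotation were kept (23521), and a gene was read from whichever had the highest mean across the 12 arrays, which left 22180 genes. No dim probe set was removed. The mutants were fitted with limma 3.58.1 in R 4.3.3 (6 residual degrees of freedom, moderated variances, two-sided, Benjamini-Hochberg over all genes), and the script was tested on simulated data. SE and 95% intervals come from the fit. The number of arrays limits the precision.

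The comparison, the 63 gene lists and the tests were chosen with earlier results of these data known. Genes named by rule were Yy1, Dicer1, 14 branching genes, the 15 largest differences each way among called genes without overlap (predicted, microRNA and sex-linked genes left out), and, for lists with at least 3 called members or a called share over 2 times that of all genes, up to 5 called members with the smallest p. Etv4, Pdgfra, Grem1, Krt7, Krt8, Krt18, Lamp3, Zeb1, Axin2, Cdkn1a, Alb, Cpa3, Fcer1a, the globins, the other microRNA genes and all genes named as not called were picked out after their values were seen. Sequences and promoter windows are from RefSeq (GRCm38.p6). Alternatives were other scalings and variance models, a fit with the controls, a replicate block, a covariate for sex-linked genes and arrays left out.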

Additional observations from a re-analysis of the deposited data

Results flagged for a closer look

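Among the 137 genes named by rule, each group of 4 arrays was checked for 1 array far from the other 3. Of 274 groups, 15 had one, where chance gives about 1 in 20 groups. Yy1 mutant 1 was the outlying array for Foxp2 (9.20 against 8.99 to 9.03), Fras1 (8.66 against 8.17 to 8.24), Tinag (5.45 against 5.22 to 5.24) and Pcdhb14 (7.0 against 6.83 to 6.86). Yy1 mutant 2 stood apart for Id2 (10.11 against 10.39 to 10.44), Meox1 (8.59 against 8.11 to 8.15) and Htra4, a serine protease (6.85 against 6.23 to 6.32). Yy1 mutant 4 did so for the imprinted gene Phlda2 (4.86 against 4.63 to 4.65).

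Dicer mutant 1 stood apart for Tc2n (5.29 against 6.13 to 6.28) and Id4 (6.48 against 6.71 to 6.76). Dicer mutant 2 did so for Angptl7 (6.19 against 6.57 to 6.58), Ffar4 (6.12 against 5.99 to 6.01) and the imprinted gene Zim1 (9.40 against 9.70 to 9.71). Dicer mutant 3 was outlying for Resp18 (4.55 against 4.65 to 4.66), and Dicer mutant 4 for Fgfr1 (8.14 against 8.26 to 8.28).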

How the results depend on the processing

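None of the 131 called genes named by rule reversed its sign under the alternatives run (123 of them were tested without the dimmest genes). Their groups did not overlap, so fits that left out or reweighted arrays could not reverse a sign. Other variance models, the minimum change, the controls, the block and leaving out dim genes kept the same difference. Only the other scalings, the mean of all probe sets and the covariate could have reversed one. Leaving out 1 array gave 151 to 288 genes higher and 456 to 716 lower in Yy1 mutants. Genes called higher numbered 515 with array weights, 549 with an intensity trend and robust prior, 517 without the dimmest 30% of genes, 106 with the replicate block, 16 without the 3 arrays high in Y-linked RNA and 1 with a minimum change of 1.5-fold. Genes called lower numbered 1068 with the trend, 401 with the block, 138 without the 3 arrays and 26 with the minimum change. Fits with the controls, quantile normalisation, equal medians, the mean of all probe sets or a covariate of Xist minus Eif2s3y kept both counts within 1.5 times. Same-numbered specimens of the mutants did not deviate together (correlations -0.161, -0.0896, -0.0251 and -0.0318), and no specimen correlated best with its own number, so the block rests on a shared number only. Of 131 called named genes, 126 kept the call with the covariate, 96 with the block, 39 without the 3 arrays and 107 to 123 with 1 array left out. Fewer samples were tested in the fits with arrays left out. The fit without the 3 arrays kept Yy1 mutants 1 and 4 and Dicer mutants 1 to 3. The cause of these shifts was not tested.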

Other observations

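Gene groups outside the lists were picked out after the values were seen, so their counts describe these arrays only. Such a choice can by itself raise the share called above that of all genes. Of 15 genes of red cell maturation and haem synthesis, 7 were lower in Yy1 than in Dicer mutants and 0 higher, or 46.7% against 4.64% of all genes. Fech, the last enzyme of haem synthesis, differed by -1.15 (adjusted p = 0.000493), and Slc25a37, which carries iron into mitochondria, by -1.18 (adjusted p = 0.000924). On the 5 arrays left when those high in Y-linked RNA were dropped, 3 of the 15 were called lower. Of 8 measured Gimap genes, GTPases of lymphoid and vascular cells, 4 were lower in Yy1 mutants and 0 higher, where 4.64% of all genes were called, with a median of -0.33, and 1 was called lower on those 5 arrays.

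Solute carriers, the large family of membrane transporters, were called in 30 of 376 cases, 25 lower and 5 higher in Yy1 mutants (7.98%), with a median of 0.02. On those 5 arrays 5 were lower and 0 higher. Of 73 small nucleolar RNAs 4 were higher and 0 lower (5.48%, close to the 4.64% of all genes), and limma called 0 on those 5 arrays. Olfactory receptors, which lung is not known for, gave 6 higher and 2 lower of 1105 (0.724%), below the share of all genes.

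Of interferon-induced genes outside the list, 6 picked out after their values were seen were called lower in Yy1 mutants: Iigp1 (-0.91), Irgm1 (-0.65), Isg20 (-0.61), Gbp7 (-0.53), Rtp4 (-0.49) and Igtp (-0.45), with adjusted p of 0.000222, 0.015, 0.00821, 0.0183, 0.0138 and 0.007. How many such genes were measured was not counted, so no share stands beside the 3.21% of all genes called lower. On the interferon response list limma called 0 of 18. Its median was -0.07, with 11 differences negative and 7 positive.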
